A study of Homo sapiens with 9 samples.

Results

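A set of 10 classical targets of the hypoxia-inducible factors (HIF) was followed across the 9 libraries of an RNA-seq experiment on drug-resistant melanoma cells. The 10 genes, VEGFA, ADM, PDK1, HK2, CA9, BNIP3, BNIP3L, ANKRD37, NDRG1 and SLC2A1, were taken by symbol from the 62710 genes of the deposited table. They are well-known HIF targets, chosen as lying outside core glycolysis, although HK2 encodes a hexokinase and so a glycolytic enzyme. The rule that names them uses no measured value, but the set was proposed with earlier results of these data known. All 10 passed the filter used for testing, a mean of at least 10 normalized counts over the 9 libraries, together with 15220 other genes. The question was whether a ligand of the VHL ubiquitin ligase raises the RNA output of HIF.

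The cells were A375R, human melanoma cells of the A375 line that tolerate the BRAF inhibitor PLX4032. For 2 h they received 10 µM R4VPL3-1, VHL-r at the same 10 µM, or DMSO, with 3 biological repeats of each treatment. The methods list PLX4032 in the culture medium of A375R, in all 3 groups alike. Beside its test of cell-death inhibitors, the paper states that the drug was in the medium throughout. It does not say so separately for the 2 h RNA-seq treatment. R4VPL3-1 is the full PROTAC-like molecule, in which a part that binds the ubiquitin ligase RNF4 is joined by a linker to a VHL-binding part. VHL-r is the VHL-binding part alone. The labels of the control libraries read WT and give no dose or time, and the design text names the control as DMSO. Their library names give 2 h for replicates 2 and 3 and no time for replicate 1. A single cell line was used, and no library was made from cells kept at low oxygen, so the size of a full hypoxic response in these cells was not measured here.

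HIF is a pair of proteins, an oxygen-regulated alpha subunit (HIF1A or EPAS1) and the constant partner ARNT. When oxygen is plentiful, prolyl hydroxylases of the EGLN family modify the alpha subunit, VHL then recognises the hydroxylated prolines, and the protein is destroyed by the proteasome. When that chain is broken, the alpha subunit accumulates, pairs with ARNT and binds hypoxia response elements, whose core reads ACGTG or GCGTG. The VHL ligands used in degraders were modelled on the hydroxylated HIF peptide and occupy the same pocket. HIF targets move glucose into the cell, divert pyruvate from mitochondria, clear mitochondria, export acid and call in blood vessels.

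Sequencing depth was similar across libraries, with 26435568 to 32085626 reads assigned to genes and a median of 28165279. SOX10 and MITF, transcription factors of the melanocyte lineage, were expressed, with SOX10 at 17547 ± 482.3 normalized counts (SD, n = 3) in DMSO, while the pigment cell antigen MLANA was listed at 0 in every library and TYR had a mean of 0.354. Of 9 melanoma markers, 7 were tested, of which 3 fell and 0 rose with VHL-r, and 4 fell and 0 rose with R4VPL3-1, against DMSO. Over all tested genes, 9.51% fell and 10.3% rose with VHL-r, and 11.8% fell and 13.1% rose with R4VPL3-1. The log2 fold change of SOX10 was -0.79 for VHL-r (limma adjusted p = 3.14e-09) and -1.06 for R4VPL3-1 (limma adjusted p = 1.56e-11). The summed level of the 9 was mostly SOX10 and AXL. It ran from 32276 to 34172 in DMSO, 23102 to 25341 in VHL-r and 20904 to 22706 in R4VPL3-1. PMEL, DCT and S100B were called in no comparison. The 5 keratinocyte markers (3 tested, DSG3 at 0) summed to 2207 to 2305, 2003 to 2203 and 1915 to 2064, mostly KRT10; 0 rose, and KRT14 fell with R4VPL3-1 against DMSO (log2 fold change -0.47, limma adjusted p = 0.00104). The 5 blood cell markers (1 tested) summed to 120.8 to 163.3, 112.1 to 141.4 and 81.2 to 127.4, mostly LYZ, which was called in no comparison. The part of these changes in the results below was not tested.

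The promoter letters that HIF can read are shown first, because response elements are what the 10 genes have in common as HIF targets. Promoters from 250 bases before to 50 bases after the RefSeq start were at hand for 7 of the 10 genes, in 9 windows on GRCh38.p14, and VEGFA, BNIP3L and NDRG1 had no entry. Each window was searched on both strands for ACGTG and GCGTG. A site on the other strand reads CACGT or CACGC, and CACGTG holds ACGTG on each strand, which counts as 2 sites. Stretches that hold sites before the start are printed 5′ to 3′ on the gene's strand, with the motif letters in capitals. The stretch of the first HK2 start and the SLC2A1 site, which lies after its start, are not printed.
ANKRD37, chr4:185396659-185396722, plus strand: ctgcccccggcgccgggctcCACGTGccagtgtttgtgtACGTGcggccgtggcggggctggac
BNIP3, chr10:131982003-131982086, minus strand: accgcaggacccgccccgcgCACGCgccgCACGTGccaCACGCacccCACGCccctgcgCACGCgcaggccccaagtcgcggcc
HK2, second start, chr2:74834956-74835124, plus strand: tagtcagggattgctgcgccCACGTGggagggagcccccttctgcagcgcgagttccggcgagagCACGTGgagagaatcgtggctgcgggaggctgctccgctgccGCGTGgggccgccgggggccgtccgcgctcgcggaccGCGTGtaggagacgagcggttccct
PDK1, second start, chr2:172556053-172556089, plus strand: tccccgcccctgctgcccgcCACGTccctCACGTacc
CA9, chr9:35673890-35673927, plus strand: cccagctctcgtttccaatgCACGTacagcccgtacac
ADM, chr11:10304952-10304996, plus strand: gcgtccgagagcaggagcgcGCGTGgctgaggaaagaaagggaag

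BNIP3 and the second start of HK2 each held 6 sites, the first start of HK2 held 3, and ANKRD37 held 3, of which the first 2 are the strands of 1 CACGTG. PDK1 had 2 sites within 20 bases of its second start and 0 in the window of its first. CA9 and ADM had 1 each, and SLC2A1 had 1, a GCGTG that lies after its start. Among all 35116 promoters of the table, 48.4% held at least 1 of the 2 motifs, 10.1% held 3 or more and 0.923% held 6 or more. Of the 9 windows of these genes, 8 (88.9%) held a motif and 2 (22.2%) held 6. The longer list of other HIF targets had a motif in 49 of 56 windows (87.5%), and promoters of all tested genes in 59.9%. At 3 or more sites the shares were 44.4% for the windows of these genes, 39.3% for the other HIF targets and 14.1% for tested genes; at 6 or more they were 22.2%, 0 of 56 windows and 1.25%. A match is a run of letters in this window and no evidence of binding in these cells.

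**Figure D1:**
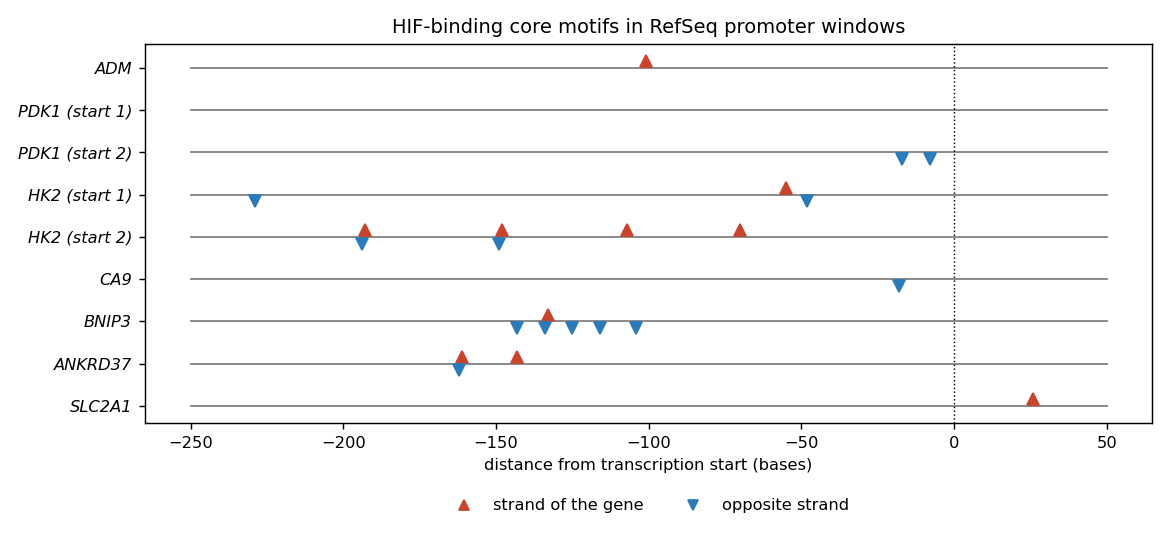
Position of each ACGTG or GCGTG site, on either strand, in bases from the RefSeq start, in the promoter windows of the 7 genes with an entry. BNIP3 and the second start of HK2 carry 6 sites each, ANKRD37 carries 3, and the first start of PDK1 carries none.

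R4VPL3-1 raised 7 of the 10 genes over DMSO: ANKRD37, BNIP3, NDRG1, HK2, PDK1, VEGFA and BNIP3L, by 21.4% to 3.84-fold. ADM, CA9 and SLC2A1 did not pass the test. By the same test 13.1% of all 15230 genes were called higher and 11.8% lower in this comparison, and the members' median log2 fold change of 0.33 stood beside a median of -0.0063 over all tested genes. None of the 10 was called lower, none was lower at an unadjusted p under 0.05 by limma, edgeR or DESeq2, and none had a log2 fold change below 0 in any of the 3. In 7 of the 10, every R4VPL3-1 library lay above every DMSO library, against 19.1% of all tested genes, and in 0 every one lay below, against 18.9%.

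VHL-r alone gave a mixed picture against DMSO. ANKRD37, NDRG1 and HK2 rose, by 12.5% to 39.2%, ADM fell by 33.6%, and VEGFA, PDK1, CA9, BNIP3, BNIP3L and SLC2A1 did not pass. Over all tested genes, 10.3% were called higher and 9.51% lower. The members' median log2 fold change was 0.04, with 5 genes above 0 and 5 below, beside -0.0045 over all tested genes. In 5 of the 10 all VHL-r libraries lay above all DMSO libraries (17.1% of all tested genes), and in 2, ADM and VEGFA, all lay below (17.2% of all tested genes).

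At the same dose and time, R4VPL3-1 gave higher levels than VHL-r in 6 of the 10 genes: ANKRD37, ADM, BNIP3, VEGFA, PDK1 and HK2. The other 4, NDRG1, BNIP3L, SLC2A1 and CA9, did not pass. In this comparison only 1.14% of all tested genes were called higher and 0.729% lower. No member was called lower, by limma, edgeR or DESeq2, and none was below 0 on the log2 scale. In 8 of the 10 the R4VPL3-1 libraries all lay above the VHL-r libraries (6.99% of all tested genes), and in 0 all lay below (7.11%). The members' median log2 fold change was 0.35, beside -0.0056 over all tested genes. The comparisons with DMSO share the same 3 DMSO libraries, and those with VHL-r the same 3 VHL-r libraries, so the 3 sets of fold changes are not independent.

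**Figure D2:**
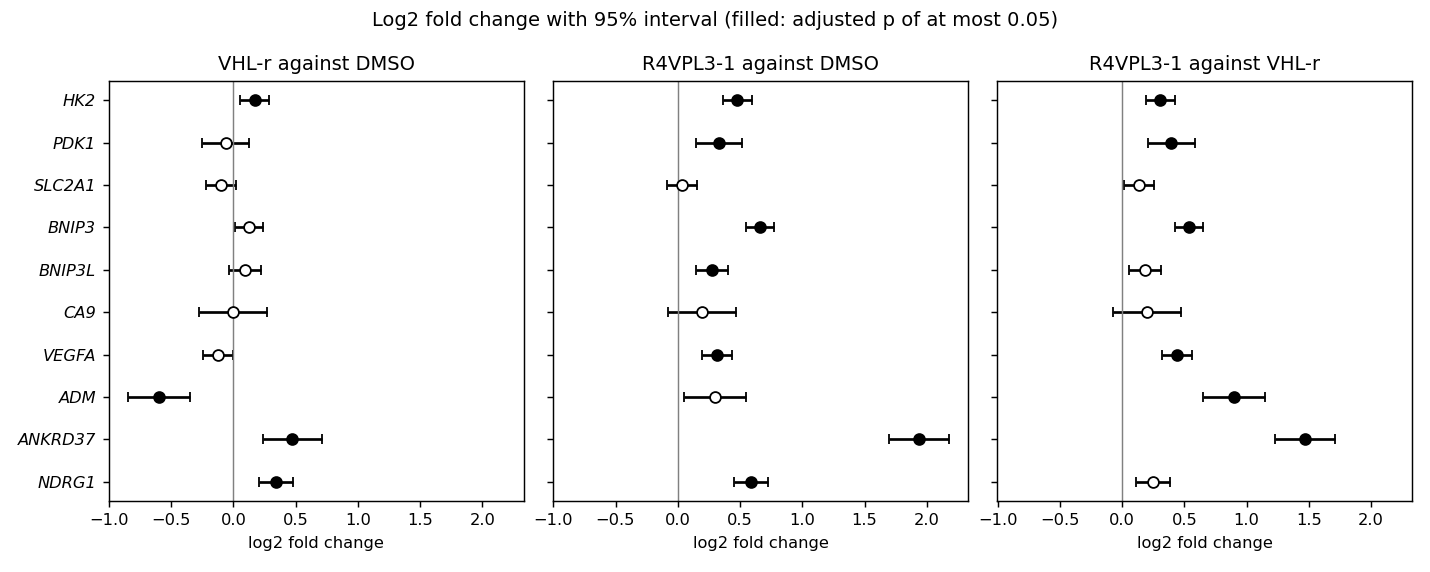
Log2 fold change of each of the 10 genes in the 3 comparisons, with 95% intervals from limma; filled points passed an adjusted p of at most 0.05. ANKRD37 stands farthest to the right for R4VPL3-1 against DMSO (1.94), and ADM is the only gene called lower, for VHL-r against DMSO (-0.60).

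Each comparison was read from a limma fit of log2(normalized count + 1) to all 9 libraries and 15230 genes, with Benjamini-Hochberg adjustment, and a gene was called at an adjusted p of at most 0.05. Fold changes on this scale slightly understate those of weakly expressed genes, and an exact permutation test of 3 libraries against 3 cannot give a p below 0.1. In bulk RNA a change in all cells and a larger change in some of them cannot be told apart.

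ANKRD37, a small ankyrin repeat protein whose gene is among the most uniformly induced HIF targets, had the largest change of the 10. Its normalized counts were 163.5, 170.2 and 173.4 in DMSO, 226.2, 218.5 and 261.2 in VHL-r, and 748.9, 692.5 and 532.1 in R4VPL3-1 (replicates 1, 2 and 3). The 3 treatments did not overlap, and R4VPL3-1 replicate 3, the lowest of its group, was still above every VHL-r library. R4VPL3-1 was 3.84-fold above DMSO (log2 fold change 1.94, SE 0.11, limma adjusted p = 5.05e-11) and 2.77-fold above VHL-r (1.47, SE 0.11, limma adjusted p = 2.97e-08). VHL-r itself was 39.2% above DMSO (0.47, SE 0.11, limma adjusted p = 0.00483). The gene lies on chromosome 4 of GRCh38 from 185396021 to 185400628 (ENSG00000186352), and none of its exon sequence is shared with another gene on its strand.

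NDRG1 (ENSG00000104419), a cytoplasmic stress-responsive protein long used as a marker of hypoxic tumour cells, rose with both compounds. It had 1635, 1448 and 1573 normalized counts in DMSO, 1778, 2046 and 2094 in VHL-r, and 2319, 2202 and 2493 in R4VPL3-1. Each treatment lay above the one before it without overlap. VHL-r was 27.1% above DMSO (log2 fold change 0.34, SE 0.07, limma adjusted p = 0.000582) and R4VPL3-1 was 50.7% above (0.59, SE 0.07, limma adjusted p = 6.98e-07). The difference between the compounds, 0.25, did not pass (95% interval 0.11 to 0.38, limma adjusted p = 0.0587), but it passed with edgeR (adjusted p = 0.0476) and DESeq2 (adjusted p = 0.0254). NDRG1 shares 6.27% of its exon bases with another gene on its strand, and 4.78% of its 100-base windows occur in another gene.

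**Figure D3:**
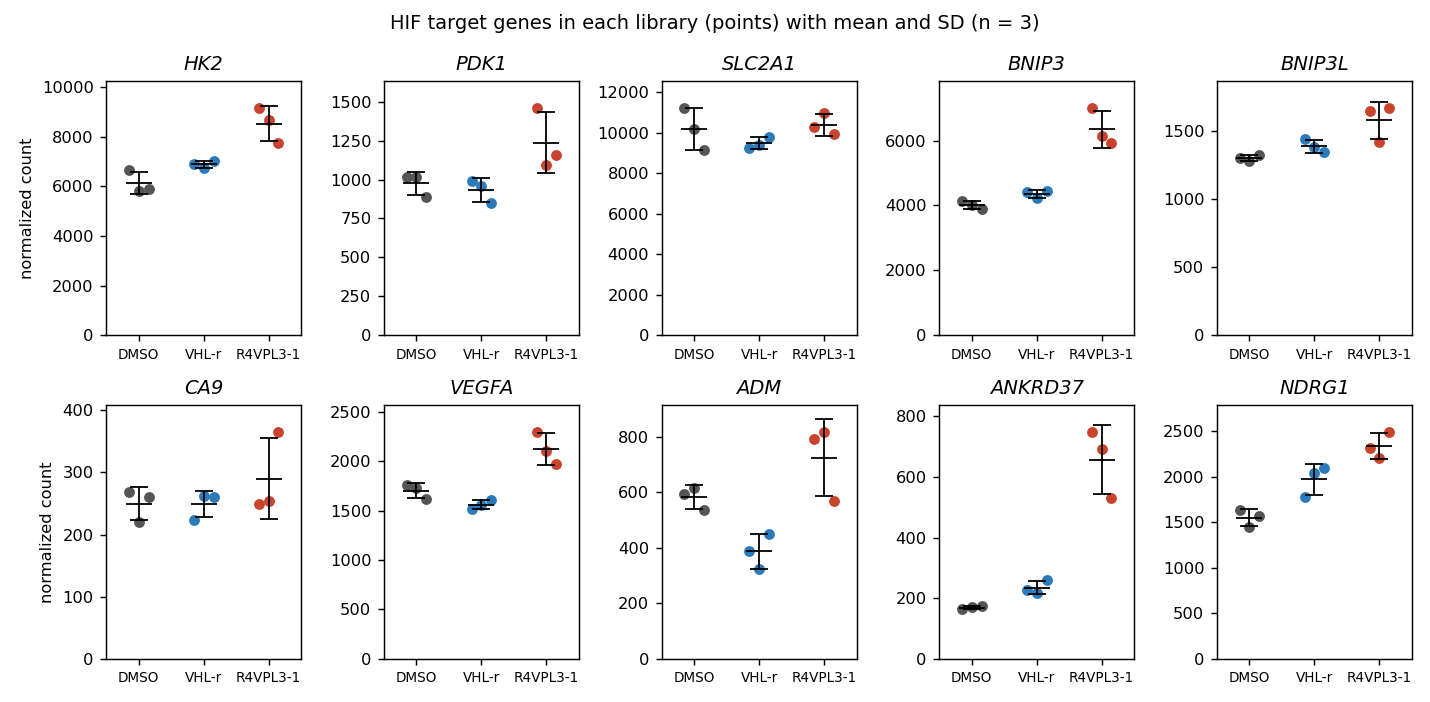
Normalized counts of the 10 genes in each of the 9 libraries, by treatment, with the mean of the 3 libraries and its SD; each panel has its own linear axis. ANKRD37 and BNIP3 separate R4VPL3-1 from both other treatments, ADM is lowest in VHL-r, and CA9 and SLC2A1 overlap between R4VPL3-1 and DMSO.

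BNIP3 and BNIP3L are related receptors of the outer mitochondrial membrane that mark mitochondria for autophagy. BNIP3 (ENSG00000176171, chromosome 10 from 131967684 to 131981967, minus strand) had 4139, 4014 and 3884 normalized counts in DMSO, 4412, 4230 and 4456 in VHL-r, and 7000, 6136 and 5930 in R4VPL3-1. All R4VPL3-1 libraries were well above the rest, and the VHL-r libraries stood just above the DMSO ones. R4VPL3-1 raised it by 58.4% over DMSO (log2 fold change 0.66, SE 0.05, limma adjusted p = 8.1e-09) and by 45.6% over VHL-r (0.54, limma adjusted p = 1.45e-06). The small difference between VHL-r and DMSO, 0.12, did not pass (95% interval 0.01 to 0.23, limma adjusted p = 0.125).

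BNIP3L (ENSG00000104765) moved less than its relative. It had 1301, 1277 and 1317 normalized counts in DMSO, 1435, 1377 and 1340 in VHL-r, and 1645, 1419 and 1664 in R4VPL3-1, so that both compounds lay above DMSO and R4VPL3-1 replicate 2 fell within the VHL-r range. R4VPL3-1 was 21.4% above DMSO (log2 fold change 0.28, SE 0.06, limma adjusted p = 0.00194). Neither VHL-r against DMSO (0.09, 95% interval -0.04 to 0.22, limma adjusted p = 0.347) nor R4VPL3-1 against VHL-r (0.18, 95% interval 0.06 to 0.31, limma adjusted p = 0.189) passed. Without R4VPL3-1 replicate 2 the latter did pass, at 0.26 (limma adjusted p = 0.0295). For BNIP3, 4.44% of the 100-base windows also occur in a pseudogene, and for BNIP3L none do.

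Among the genes of glucose handling, HK2, the hexokinase that traps glucose and sits on mitochondria, rose in steps. Its normalized counts were 6642, 5824 and 5910 in DMSO, 6900, 6750 and 7021 in VHL-r, and 9153, 8690 and 7766 in R4VPL3-1, with no overlap between treatments. It was 39.4% above DMSO in R4VPL3-1 (log2 fold change 0.48, SE 0.06, limma adjusted p = 1.75e-06) and 0.31 above VHL-r on the log2 scale (limma adjusted p = 0.00279). VHL-r raised it by 12.5% over DMSO (0.17, SE 0.06, limma adjusted p = 0.0362). That smaller call depended on every library but DMSO replicate 1 among the 6 compared: it was lost without DMSO replicate 2 (limma adjusted p = 0.175), without DMSO replicate 3 (0.126) and without any 1 of the VHL-r libraries (0.0832, 0.0704 and 0.0941 for replicates 1, 2 and 3). HK2 (ENSG00000159399) lies on chromosome 2 from 74834127 to 74893359, and 2.66% of its 100-base windows are shared with a pseudogene.

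PDK1, the kinase that switches off pyruvate dehydrogenase and so keeps pyruvate out of mitochondria, lies on the same chromosome from 172555373 to 172608669 (ENSG00000152256). It had 1017, 1017 and 890.3 normalized counts in DMSO, 991.7, 961.2 and 848.1 in VHL-r, and 1459, 1092 and 1157 in R4VPL3-1. DMSO and VHL-r overlapped, and R4VPL3-1 lay above both, with replicate 1 far above the other two. R4VPL3-1 was 26.8% above DMSO (log2 fold change 0.33, SE 0.09, limma adjusted p = 0.00823) and 0.40 above VHL-r (SE 0.09, limma adjusted p = 0.0179). Both calls were lost without R4VPL3-1 replicate 1, when the differences were 0.21 (limma adjusted p = 0.0747) over DMSO and still positive over VHL-r (limma adjusted p = 0.157). The second of them was also lost without VHL-r replicate 2 (0.0561) or replicate 3 (0.123). VHL-r did not differ from DMSO by the test (-0.06, 95% interval -0.25 to 0.12, limma adjusted p = 0.701).

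SLC2A1, which encodes the glucose transporter GLUT1, passed in no comparison. Its normalized counts were 11205, 10182 and 9141 in DMSO, 9223, 9406 and 9808 in VHL-r, and 10268, 10983 and 9931 in R4VPL3-1. The DMSO libraries held both the highest and the lowest of the 9 values. The log2 fold change was 0.03 for R4VPL3-1 against DMSO (95% interval -0.09 to 0.15, limma adjusted p = 0.724), so a rise like that of HK2 lies outside this interval. It was -0.10 for VHL-r against DMSO (95% interval -0.22 to 0.02, limma adjusted p = 0.274). Without DMSO replicate 3 that value became -0.17 and passed (limma adjusted p = 0.0301), and without DMSO replicate 1 it shrank to -0.03. R4VPL3-1 against VHL-r gave 0.13 (95% interval 0.01 to 0.25, limma adjusted p = 0.422), with all 3 R4VPL3-1 libraries above all 3 VHL-r libraries. SLC2A1 (ENSG00000117394) is on chromosome 1 from 42925353 to 42958893, minus strand.

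CA9, the cell surface carbonic anhydrase that handles acid outside hypoxic cells, is among the targets most tightly tied to HIF in other tumours. It passed in no comparison here. The libraries had 268.8, 220.4 and 260.6 normalized counts in DMSO, 224.2, 261.6 and 261.2 in VHL-r, and 249.3, 254.7 and 365.1 in R4VPL3-1. The groups overlapped in all 3 comparisons, and R4VPL3-1 replicate 3 stood alone above the rest. The log2 fold change was 0.19 for R4VPL3-1 against DMSO (95% interval -0.08 to 0.47, limma adjusted p = 0.308), 0.20 against VHL-r (95% interval -0.07 to 0.47, limma adjusted p = 0.714) and -0.0039 for VHL-r against DMSO (95% interval -0.28 to 0.27, limma adjusted p = 0.989). Without R4VPL3-1 replicate 3 both differences of R4VPL3-1 dropped to 0.02, so they rest on that library. The intervals leave room for a change like that of PDK1 but not for one like that of ANKRD37. CA9 (ENSG00000107159) is on chromosome 9 from 35673928 to 35681159.

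For both secreted factors the log2 fold change against DMSO was below 0 with VHL-r and above 0 with R4VPL3-1. VEGFA, the growth factor of blood vessels (ENSG00000112715, chromosome 6 from 43770184 to 43786487), had 1758, 1732 and 1622.5 normalized counts in DMSO, 1519, 1558 and 1609 in VHL-r, and 2298, 2104 and 1975 in R4VPL3-1. The VHL-r libraries were all just under the DMSO ones and the R4VPL3-1 libraries all above. R4VPL3-1 was 24.8% above DMSO (log2 fold change 0.32, SE 0.06, limma adjusted p = 0.000305) and 36.1% above VHL-r (0.44, SE 0.06, limma adjusted p = 6.14e-05). VHL-r against DMSO, at -0.125, did not pass (95% interval -0.25 to -0.0041, limma adjusted p = 0.149).

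ADM, which encodes the vessel-widening peptide adrenomedullin (ENSG00000148926, chromosome 11 from 10305073 to 10307397), was the only member that fell. Its normalized counts were 595.7, 616.9 and 535.4 in DMSO, 387.3, 324.6 and 449.6 in VHL-r, and 790.9, 817.8 and 567.4 in R4VPL3-1. Every VHL-r library was below every other library, and R4VPL3-1 replicate 3 sat within the DMSO range while replicates 1 and 2 were above it. VHL-r was 33.6% below DMSO (log2 fold change -0.60, SE 0.12, limma adjusted p = 0.00102), and R4VPL3-1 was 1.86-fold above VHL-r (0.90, SE 0.12, limma adjusted p = 8.39e-05). R4VPL3-1 against DMSO did not pass (0.30, 95% interval 0.05 to 0.55, limma adjusted p = 0.0776). It passed with edgeR (0.33, adjusted p = 0.042) and without R4VPL3-1 replicate 3 (0.47, limma adjusted p = 0.00264).

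Per kilobase of annotated exon, which allows levels to be set side by side between genes, SLC2A1 was highest in DMSO with 1539 normalized counts per kilobase (1382 to 1694 over the 3 libraries). HK2 (1035) and BNIP3 (990.7) followed and overlapped each other, then BNIP3L (313), ADM (250.6), CA9 (156.4), NDRG1 (129.3), VEGFA (118.1), ANKRD37 (75.0) and PDK1 (65.7). NDRG1 and VEGFA overlapped as well; the other neighbours in this order did not. In R4VPL3-1 ANKRD37 reached a mean of 292 per kilobase, next to ADM at 312, and BNIP3 at 1569 stood level with SLC2A1 at 1571. The annotated exons join all transcripts of a gene, 14845 bases for PDK1 and 14431 for VEGFA against 1598 for CA9, so a level per kilobase is lowered where a long exon form is little used.

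The spread within a treatment was widest in R4VPL3-1 for 8 of the 10 genes. How often this holds over all tested genes was not counted, so nothing is read from the 8. The coefficient of variation over the 3 libraries reached 22.6% for CA9, 18.9% for ADM, 17.1% for ANKRD37 and 15.8% for PDK1 there. Over the 10 genes it ran from 1.56% to 10.4% in DMSO and from 1.97% to 16.1%, for ADM, in VHL-r. R4VPL3-1 replicate 1 was the highest of its group in 5 genes and replicate 3 the lowest in 6, while replicate 3 was the highest for CA9, BNIP3L and NDRG1. In VHL-r, replicate 3 was the highest in 7 genes.

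Of 46 other HIF targets, 40 were tested. Against DMSO, VHL-r raised 9 and lowered 9 of them, with a median log2 fold change of 0.07, and R4VPL3-1 raised 18 and lowered 7, with a median of 0.15. R4VPL3-1 was higher than VHL-r in 6 and lower in 0, with a median of 0.07, and no other tool called a lower one. At an unadjusted p under 0.05 by limma, 11 were higher and 3 lower. The shares of all genes called in each direction are those given above for the members.

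Several of these targets rose with both compounds. SLC2A3, the high-affinity glucose transporter GLUT3, had 853.6, 858.9 and 818.4 normalized counts in DMSO, 1303, 1351 and 1437 in VHL-r, and 1853, 1809 and 1687 in R4VPL3-1. The 3 treatments did not overlap. Its log2 fold change was 0.69 for VHL-r (limma adjusted p = 2.12e-08) and 1.08 for R4VPL3-1 (limma adjusted p = 1.29e-11) against DMSO, and 0.39 between the compounds (limma adjusted p = 0.000315). KDM3A, a histone demethylase, followed the same steps at 0.51 (limma adjusted p = 5.57e-06), 0.93 (limma adjusted p = 6.69e-10) and 0.42 (limma adjusted p = 0.000422). CCNG2, an atypical cyclin, had means of 158.5, 247.4 and 351.6 normalized counts in DMSO, VHL-r and R4VPL3-1, and rose by 0.65 (limma adjusted p = 0.000184) and 1.16 (limma adjusted p = 8.79e-08) against DMSO on the log2 scale. WSB1, a ubiquitin ligase subunit, and PGF, a relative of VEGFA, rose by 0.76 each with VHL-r (limma adjusted p = 5.17e-08 and 6.07e-05) and by 0.85 and 0.95 with R4VPL3-1 (limma adjusted p = 5.31e-09 and 2.83e-06).

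EGLN3, a prolyl hydroxylase that is itself a HIF target, rose from 7.26, 13.8 and 14.2 normalized counts in DMSO to 39.0, 33.6 and 29.7 in VHL-r and 31.8, 35.8 and 31.1 in R4VPL3-1. The compounds overlapped each other and not DMSO. The log2 fold change was 1.51 for VHL-r (limma adjusted p = 0.000413) and 1.46 for R4VPL3-1 (limma adjusted p = 0.000435), with -0.05 between the compounds (limma adjusted p = 0.986). At these low counts the log2 scale understates the change.

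HMOX1, DDIT4 and MIR210HG rose with R4VPL3-1 and were not called higher with VHL-r. HMOX1, a heme oxygenase and also a target of the oxidative stress factor NRF2, had 618.4, 620.8 and 593.2 normalized counts in DMSO, 644.5, 695.4 and 649.4 in VHL-r, and 13646, 11465 and 5951 in R4VPL3-1. DDIT4, an inhibitor of mTOR signalling that several stress pathways induce, had 3215, 3355 and 3226 in DMSO, 2073, 2392 and 2318 in VHL-r, and 18120, 16346 and 10017 in R4VPL3-1. R4VPL3-1 replicate 3 was the lowest of its group in both and still above every DMSO and VHL-r library. MIR210HG, the host transcript of the hypoxia microRNA miR-210, had 18.2, 18.7 and 20.3 in DMSO, 23.0, 10.5 and 25.6 in VHL-r, and 104.6, 94.5 and 76.0 in R4VPL3-1. Against VHL-r the log2 fold changes of HMOX1, DDIT4 and MIR210HG were 3.88, 2.67 and 2.24 (limma adjusted p = 3.27e-12, 1.15e-11 and 2.95e-05), larger than that of any of the 10 members. DDIT4, like ADM, fell with VHL-r (-0.53, limma adjusted p = 0.00477), a call lost with DESeq2 (adjusted p = 0.0529) and with limma's robust option (adjusted p = 0.158).

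STC2 and RAB20 fell with both compounds, and EDN1 was lower in both. CITED2, FLT1, MET and IGFBP3 were also called lower with both. Their log2 fold changes against DMSO were -0.51, -0.45, -0.25 and -0.23 with VHL-r. With R4VPL3-1 they were -0.62, -0.40, -0.31 and -0.27. EDN1, which encodes the vessel-narrowing peptide endothelin, went from 30.0, 21.6 and 26.4 normalized counts in DMSO to 8.01, 5.25 and 8.19 in VHL-r and 5.60, 3.98 and 5.35 in R4VPL3-1. All libraries of both compounds were below all DMSO libraries. EDN1 passed the filter on low values through DMSO alone, since its means with VHL-r (7.15) and R4VPL3-1 (4.98) were below 10. It therefore had to differ, and its log2 fold changes of -1.74 and -2.17 are a description, although it counts among the genes called lower above. STC2, a secreted glycoprotein, fell by 0.745 and 0.49 on the log2 scale (limma adjusted p = 3.81e-05 and 0.00199) and RAB20, a vesicle GTPase, by 0.66 with each compound (limma adjusted p = 7.88e-06 and 5.57e-06).

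Core glycolytic targets were called about as often as all tested genes with VHL-r. Of 15 enzymes, 13 were tested: VHL-r raised 1 (PFKFB3, 0.26) and lowered 1 (PFKFB4, -0.56), where 10.3% and 9.51% of all tested genes were called, and R4VPL3-1 raised 3 against DMSO (ENO2, PFKFB3 and PGK1, by 0.21, 0.18 and 0.13) and lowered 1 (PFKFB4, -0.58), where 13.1% and 11.8% were called. The list's median log2 fold changes were 0.0072 and 0.06. PFKFB3 and PFKFB4 make and break the sugar phosphate that sets the pace of glycolysis. HK2, also a glycolytic enzyme, is counted with the 10 members and not in this list. Between the compounds limma called 0, with 4 higher at an unadjusted p under 0.05, while edgeR called 1 and DESeq2 called 2, all higher in R4VPL3-1.

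Among the genes of oxygen sensing, HIF1A had 3477, 3162 and 3050 normalized counts in DMSO, 2810, 2953 and 2726 in VHL-r, and 2707, 2677 and 2750 in R4VPL3-1. It fell with R4VPL3-1 (log2 fold change -0.25, limma adjusted p = 0.00105) and with VHL-r (-0.19, limma adjusted p = 0.0123), and the second call was lost without DMSO replicate 1 (limma adjusted p = 0.0969) or without VHL-r replicate 3 (limma adjusted p = 0.0512). EPAS1, which encodes the other alpha subunit, rose from a lower level: 99.9, 80.7 and 80.1 in DMSO, 146.1, 134.5 and 168.0 in VHL-r, and 131.7, 116.4 and 167.0 in R4VPL3-1. Its log2 fold change was 0.78 with VHL-r (limma adjusted p = 0.000772) and 0.66 with R4VPL3-1 (limma adjusted p = 0.00277).

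VHL RNA had 1532, 1752 and 1823 normalized counts in DMSO, 1757, 1794 and 1731 in VHL-r, and 1653, 1796 and 1745 in R4VPL3-1, overlapping throughout, and neither VHL nor ARNT passed in any comparison. Of 14 genes of the sensing machinery 11 were tested, and each compound raised 2 (EPAS1 and EGLN3) and lowered 1 (HIF1A). EGLN1 and EGLN3 are also on the list of other HIF targets, so EGLN3 is counted in both lists. Over all tested genes 10.3% were called higher and 9.51% lower with VHL-r, and 13.1% and 11.8% with R4VPL3-1, and nothing is read from counts over so few genes. Between the compounds limma, edgeR and DESeq2 called 0 of them, and 0 had an unadjusted p under 0.05. EGLN1, the main hydroxylase, had a mean of 0.214 and EGLN2 was listed at 0, as was HILPDA among the targets. Reads on exons that 2 genes share on 1 strand are not assigned, and 55.8%, 30.6% and 13.2% of the exon bases of these 3 genes lie under such a neighbour. ALDOA had a mean of 0.763, with 42.8% of its exon bases under a neighbour. ALDOC was listed at 0, with none of its exon bases under a neighbour. PPP1R3C, CA12, CXCR4, EPO and HIF3A, also below the filter, had none either. The part of this overlap in the low values was not tested. RNA levels also do not show HIF protein, which VHL acts on.

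**Figure D4:**
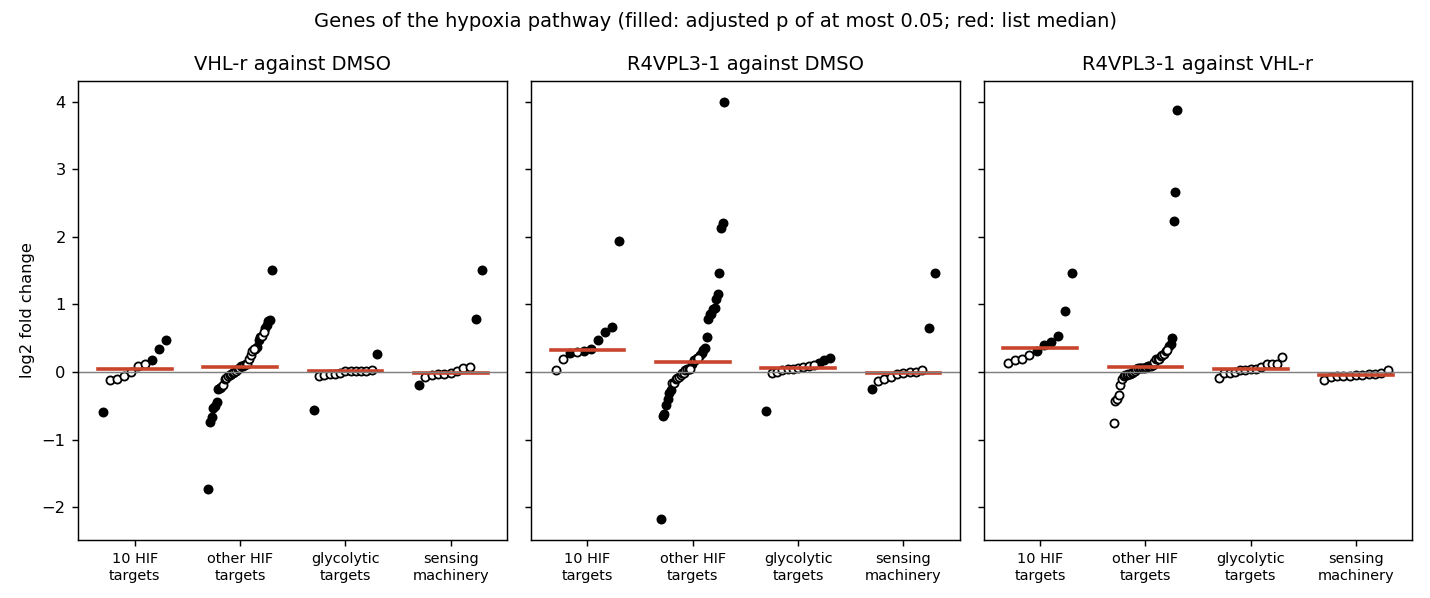
Log2 fold change of each tested gene of the 10 members, the other HIF targets, the glycolytic targets and the sensing machinery in the 3 comparisons, with the list's median and the called genes marked. EGLN3 is drawn both with the other HIF targets and with the sensing machinery. HMOX1, DDIT4 and MIR210HG lie highest in both comparisons of R4VPL3-1, EDN1 lies lowest for both compounds against DMSO, and PFKFB4 (-0.56 and -0.58) lies lowest among the glycolytic genes.

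All tested genes other than the 10 members were searched for the profiles over the 9 libraries closest to each called member. Closeness was the root mean square (RMS) difference of log2 values after each gene's mean was removed. ANKRD37, whose own SD over the libraries was 0.89, was closest to DUSP1 and DDIT3 (RMS 0.13 each), a phosphatase and a transcription factor induced by stress, and to INSIG1 (0.17). BNIP3 (SD 0.31) was closest to the chaperone gene HSPH1 (0.04). ADM (SD 0.44) was closest to KLF2 (0.16) and NR4A2 (0.17), both immediate early transcription factors, and HK2 (SD 0.22) to KMT5C, SQSTM1 and UBE2O (0.06 each). VEGFA (SD 0.21) was closest to RASSF1, PDK1 (SD 0.23) to CHORDC1, NDRG1 (SD 0.27) to MZF1-AS1 and BNIP3L (SD 0.14) to MANBA. None of these is on the lists of HIF targets used here. The 9 libraries hold only 3 treatments, so a close profile describes these treatments alone.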

How the data were processed

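RNA selected for poly(A) from A375R cells was sequenced as strand-specific single reads. The authors aligned reads to GRCh38 with STAR, counted them per gene with htseq-count, and deposited a normalized signal: counts divided by a DESeq2 (1.36.0) size factor per library. Reads were recovered from the value of 1 read, and 100.0% of values came out whole within 0.01 read; for VHL-r replicate 1 and R4VPL3-1 replicate 2, where 1 read is worth nearly 1 (1.0007 and 0.9949), the recovery is less certain. Because the deposited signal is normalized, the test was limma 3.58.1 (R 4.3.3, trend) on log2(value + 1), fitted to treatment over all 9 libraries and the 15230 genes whose mean reached 10, with Benjamini-Hochberg adjustment. The procedure was tested on simulated data. Libraries were constructed together, so no batch could be compared. No 2 libraries of the same treatment were as alike as sampling noise allows.

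The members and the lists were chosen with earlier results of these data known. Named are all members, the called genes of the lists with the largest fold changes (up to 8 per comparison), HIF1A, EPAS1, ARNT, VHL and the EGLN genes, and for each called member its nearest profiles. Other HIF targets called lower with both compounds are named as well. The alternatives comprised other pseudocounts (0.1 and 5), other filters (none, or a mean of 50), rescaling by TMM factors, limma's robust option, a block for the replicate number, counts recovered as reads and tested by DESeq2 1.42.0 or edgeR 4.0.16, a fit to the 6 libraries compared alone, a threshold of 0.01, and each library left out. Exons came from GENCODE 44, matched for 62639 of 62710 identifiers, and promoters from RefSeq.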

Additional observations from a re-analysis of the deposited data

How the results depend on the processing

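Counts of called members varied little over the alternatives: 3 to 4 for VHL-r against DMSO, 6 to 8 for R4VPL3-1 against DMSO and 5 to 7 between the compounds. For the other HIF targets they were 15 to 19, 21 to 26 and 5 to 7. Calls of single members that changed are given in the report; in addition, HK2 in VHL-r against DMSO was lost without a filter (limma adjusted p = 0.0649), and PDK1 between the compounds was lost with the robust fit (0.0509), with which NDRG1 passed there (0.0476). NDRG1 also passed without DMSO replicate 1 (0.0498) or VHL-r replicate 3 (0.0386). The replicate numbers were not taken to pair the libraries: the correlation of deviations between same-numbered libraries ran from -0.0056 to 0.12 over 9 pairs, short of the 0.1 asked of every pair, and from -0.15 to 0.10 over 18 pairs with different numbers. The first range lay higher at both ends, so the libraries may still be paired by replicate number. With the replicate block, NDRG1 passed between the compounds (limma adjusted p = 0.0198), and genes called over the whole table numbered 3451, 4241 and 389 in the 3 comparisons, against 3016, 3792 and 285 without it.

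Some log2 fold changes near 0 changed sign when 1 library was left out, over these ranges. In VHL-r against DMSO, PDK1 ran from -0.13 to 0.00491, CA9 from -0.0916 to 0.0697, MIR210HG from -0.27 to 0.34, ARNT from -0.0228 to 0.0607 and VHL from -0.0218 to 0.10. MIR210HG in that comparison was also above 0 by edgeR (0.0612) and DESeq2 (0.0551). In R4VPL3-1 against DMSO, SLC2A1 ran from -0.0406 to 0.11, ARNT from -0.045 to 0.0142 and VHL from -0.0469 to 0.0786. In R4VPL3-1 against VHL-r, EGLN3 ran from -0.14 to 0.0527, WSB1 from -0.00321 to 0.16, RAB20 from -0.0896 to 0.0744, ARNT from -0.0726 to 0.0108 and VHL from -0.052 to 0.00787. None of these was called in the comparison concerned. Depth limits EGLN3, EDN1 and MIR210HG, with few reads per library, and 3 libraries per treatment limit the rest. The p-values measure the spread between repeats of 1 cell line at 1 dose and time.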
